A study of Mus musculus with 6 samples.

Results

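The 10 genes that mark and specify the ventral neural tube were followed in a map of open chromatin: Shh, Foxa2, Nkx2-2, Nkx2-9, Nkx6-1, Nkx6-2, Olig1, Olig2, Dbx1 and Dbx2. Their chromatin was represented by 86 of the 52223 accessible intervals of the deposited table. An interval belonged to a gene when its midpoint lay inside the gene, or when the nearest end of any protein-coding gene was an end of that gene and lay within 500 kb. The 10 genes held 4 to 21 intervals each, 63 of the 86 lay within 100 kb of a gene end, and 9 lay inside the neighbouring gene Inpp5a while being nearest to Nkx6-2. The farthest interval was 361.7 kb from its gene, so none lay close to the 500 kb limit, and no interval nearest to these genes was left out by it.

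Chromatin accessibility was measured by ATAC-seq, in which the Tn5 transposase inserts sequencing adapters into open DNA, in mouse neural progenitors differentiated from embryonic stem cells. The Nr6a1OE group (3 libraries) carried a lentivirus that encodes Nr6a1, a 2A peptide and the red fluorescent protein mScarlet3, and the mScarlet group (3 libraries) carried a lentivirus with mScarlet3 alone. Both groups received 5 µM CHIR99021, which activates Wnt signalling, on day 2, and retinoic acid (100 nM) plus Smoothened agonist (SAG, 10 nM) on day 3. Retinoic acid was dropped on day 5, the day of transduction, while SAG was kept at 10 nM. On day 9 fluorescent cells were sorted and 50000 went into each library, so hedgehog signalling had been activated from day 3 in both groups. The sources used here give neither the promoter of the transgenes nor the embryonic stem cell line, nor whether libraries of a group came from separate cultures. The p-values therefore measure the spread between these libraries, which may be technical. The libraries held 6857763 to 8030029 fragments in intervals.

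In the neural tube, Shh is secreted from the notochord and the floor plate and forms a ventral to dorsal gradient. Its receptor Patched releases Smoothened, and Gli transcription factors then switch on ventral genes and relieve the repression of others. The genes it induces, such as Nkx2-2, Olig2 and Nkx6-1, and those it restricts to intermediate levels, such as Dbx1 and Dbx2, encode transcription factors that repress each other in pairs and so divide progenitors into domains along the dorsoventral axis. Smoothened agonist stands in for the Shh signal in culture. Nr6a1 is a nuclear receptor with no known ligand that acts as a transcriptional repressor, and the comparison asks how its overexpression alters the chromatin of such progenitors.

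At 8 of the 10 genes a RefSeq transcription start was known (GRCm38.p6, whose coordinates are those of mm10), with 10 starts in all. The 250 bases before the start are shown for the 3 genes that lost accessibility at an interval, Nkx6-1, Nkx2-2 and Foxa2, and for Olig2 and Dbx1, whose windows held the most motif matches. Each is read in the direction of transcription. Capitals mark TATAAA (the letters of the TATA box), CCAAT and CACCCA (a short run inside the Gli motif GACCACCCA) on either strand.
Nkx6-1 (chr5:101664712-101664961, minus strand): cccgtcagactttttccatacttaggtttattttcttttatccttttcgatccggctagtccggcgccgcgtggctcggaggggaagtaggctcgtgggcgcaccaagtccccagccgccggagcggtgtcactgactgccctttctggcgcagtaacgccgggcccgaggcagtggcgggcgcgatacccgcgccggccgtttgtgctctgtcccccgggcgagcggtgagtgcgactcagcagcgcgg
Nkx2-2 (chr2:147186403-147186652, minus strand): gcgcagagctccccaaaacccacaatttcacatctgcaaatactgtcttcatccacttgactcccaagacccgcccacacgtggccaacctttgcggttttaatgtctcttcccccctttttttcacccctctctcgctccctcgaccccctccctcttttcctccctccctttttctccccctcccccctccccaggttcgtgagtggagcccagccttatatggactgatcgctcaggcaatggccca
Foxa2 (chr2:148046970-148047219, minus strand): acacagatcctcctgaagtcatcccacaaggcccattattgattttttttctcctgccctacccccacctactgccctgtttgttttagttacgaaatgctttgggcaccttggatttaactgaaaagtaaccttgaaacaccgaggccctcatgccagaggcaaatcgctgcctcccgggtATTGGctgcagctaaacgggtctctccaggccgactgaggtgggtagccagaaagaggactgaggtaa
Olig2 (chr16:91225300-91225549, plus strand): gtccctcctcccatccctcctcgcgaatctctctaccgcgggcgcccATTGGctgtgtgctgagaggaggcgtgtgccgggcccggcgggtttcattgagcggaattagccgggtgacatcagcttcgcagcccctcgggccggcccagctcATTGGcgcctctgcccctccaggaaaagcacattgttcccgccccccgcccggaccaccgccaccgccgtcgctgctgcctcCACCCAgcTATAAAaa
Dbx1 (chr7:49636836-49637085, minus strand): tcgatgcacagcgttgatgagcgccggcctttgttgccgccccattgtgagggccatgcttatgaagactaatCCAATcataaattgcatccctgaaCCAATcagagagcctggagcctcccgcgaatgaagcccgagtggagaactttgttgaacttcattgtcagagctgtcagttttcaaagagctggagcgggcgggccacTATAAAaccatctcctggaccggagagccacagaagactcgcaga

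The windows of Nkx6-1, Nkx2-2, Olig2 and Dbx1 lay wholly inside an accessible interval. The window shown for Foxa2 is that of its outermost start and lay in no interval, whereas those of its 2 inner starts lay wholly inside the interval that covers the gene. CpG dinucleotides numbered 30 before the start of Nkx6-1, 26 for Nkx6-2, 22 for Olig2, 13 for Nkx2-9, 12 for Dbx1, 9 for Dbx2 and 8 for Nkx2-2. Foxa2 had 6 before its outermost start and 20 and 13 before its inner starts. The median was 10 over 21263 windows of protein-coding genes. None of the 10 windows held the nuclear receptor half-site AGGTCA, which 12.8% of all windows held, nor the longer runs that contain it, TCAAGGTCA (0.320% of all windows) and the direct repeat of AGGTCA without a spacer (0.00941%), which Nr6a1 is known to bind. Neither GACCACCCA (0.160%) nor the forkhead motif TGTTTAC (2.62%) occurred in them. CACCCA (19.1%) was found before Nkx2-9 and Olig2, TATAAA (11.6%) before Dbx1, Olig2 and the innermost start of Foxa2, and CCAAT (35.4%) before Dbx1, Foxa2, Nkx6-2 and Olig2. The TATAAA match began 45 bases before the start at Dbx1 and 8 at Olig2. At Foxa2 it began 208 bases before the start, on the opposite strand. All motifs were sought on both strands. These matches describe letters in the windows, not sites of binding. The sequence of the intervals away from the starts was not used here.

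Nr6a1OE progenitors lost accessibility at 3 of the 86 intervals and gained it at none. The losses were a strong interval in the gene desert beyond Nkx6-1, a weak distal interval of Foxa2, and an interval inside Nkx2-2. A loss or gain is a log2 fold change with a Benjamini-Hochberg adjusted p under 0.05 over all 51637 tested intervals in edgeR's quasi-likelihood test, and such intervals are called closed or opened. The 3 closed intervals were 3.49% of the members, against 1.26% of all tested intervals, and 0 opened, against 0.469%. All 86 passed the filter on low counts. At an unadjusted p under 0.05, 13 members were lower (15.1%, against 6.87% of all intervals) and 4 higher (4.65%, against 5.73%). DESeq2 called 1 member closed and 0 opened. Of all intervals that DESeq2 gave an adjusted p, it called 0.215% closed and 0.00867% opened. In bulk cells a lower value can come from fewer cells with the site open or from less access per cell, and these cannot be told apart.

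Taken over the members, 55 of 86 log2 fold changes were below 0, which is 64.0% against 49.2% of all tested intervals, and their median was -0.03 against 0.0038. The groups did not overlap, with Nr6a1OE lower, at 14 members (16.3%, against 8.73% of all), and with Nr6a1OE higher at 5 (5.81%, against 7.89%). Intervals of 1 gene share a neighbourhood and may not vary independently. Chromosome 5, which carries Shh and Nkx6-1, held 22 of the 55 lower values among its 27 members, and 17 of the 22 were at Nkx6-1. That is 81.5% lower, against 49.0% of all chromosome 5 intervals, with a median of -0.10 against 0.01.

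**Figure D1:**
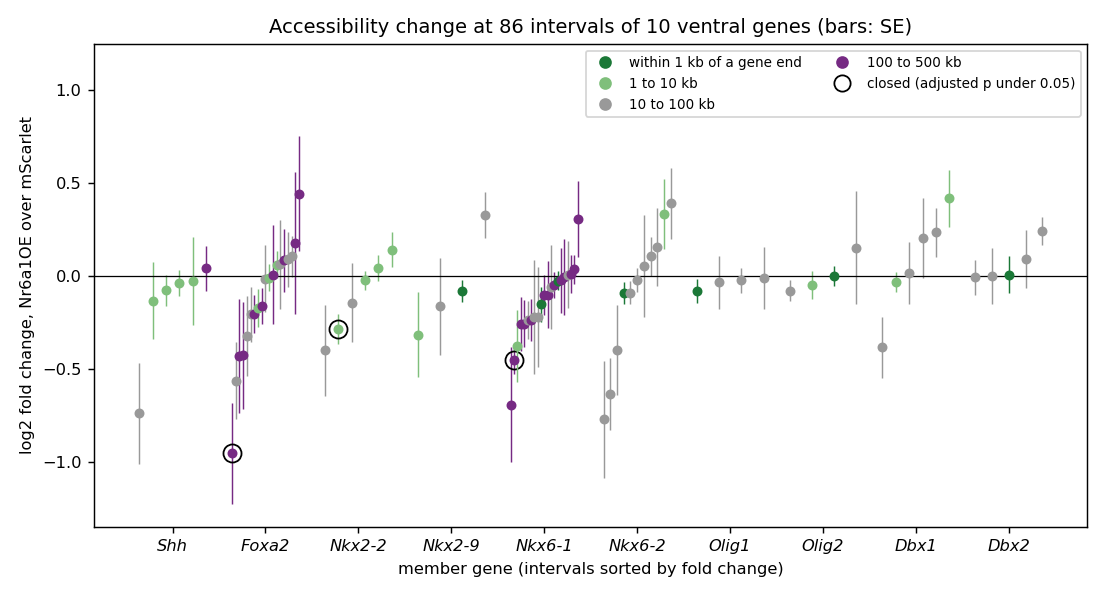
Log2 fold change (Nr6a1OE over mScarlet, vertical axis) of each of the 86 intervals, sorted within each gene, with bars for the SE and colours for the distance from the nearest gene end; circles mark closed intervals. The closed intervals of Foxa2, Nkx2-2 and Nkx6-1 lie at -0.95, -0.28 and -0.45, and the intervals of Olig1 and Olig2 lie between -0.08 and 0.15.

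Nkx6-1 encodes a homeodomain repressor present through most of the ventral progenitor domains and needed for motor neuron formation. It lies on chromosome 5 (mm10, 101659184 to 101664711) and held 21 intervals, more than any other member. Its closed interval (101523581 to 101524845) lay downstream, in intergenic DNA, 135.0 kb from the gene and 140.5 kb from its start; the next protein-coding gene on the other side, Gpat3, was 625.1 kb away. It held 28.0, 28.4 and 32.2 CPM (fragment counts scaled to library depth by the TMM method) in the Nr6a1OE libraries, against 38.5, 38.3 and 44.1 CPM in the mScarlet libraries. The lowest mScarlet library was above the highest Nr6a1OE library. The means were 29.5 ± 2.31 CPM in Nr6a1OE and 40.3 ± 3.29 CPM in mScarlet (SD, n = 3 each). On the log2 scale the interval fell by 0.45 (SE 0.076), to 0.732-fold (edgeR adjusted p = 2.06e-06).

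This loss was not shared by the interval 1.75 kb away. That neighbour (101520831 to 101521835) had 41.2 ± 2.22 CPM in Nr6a1OE and 42.6 ± 1.77 CPM in mScarlet (SD, n = 3 each), or -0.05 on the log2 scale (SE 0.069, edgeR adjusted p = 0.839). Fragments in the closed interval per fragment in this neighbour came to 0.711, 0.700 and 0.737 in the Nr6a1OE libraries and 0.906, 0.936 and 0.992 in the mScarlet libraries, a ratio that needs no scaling between libraries. The ratio is a description, since the interval had been picked out by its difference. The neighbour on the gene's side, 12.64 kb away, had a log2 fold change of 0.01 (SE 0.10).

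The interval over the start of Nkx6-1 held 78.7, 75.7 and 80.7 CPM in Nr6a1OE, against 75.9, 89.2 and 75.4 CPM in mScarlet. These groups overlapped, and the log2 fold change was -0.03 (SE 0.051, edgeR adjusted p = 0.898). Across the 21 intervals 17 were lower and 4 higher, where 49.2% of all tested intervals were lower, and the median was -0.10. Before adjustment 5 were lower and 0 higher (p under 0.05 in edgeR), against 6.87% lower and 5.73% higher of all; DESeq2 called 0 of them higher. Leaving out any 1 library kept the call at the distal interval (edgeR adjusted p = 3.83e-06 to 0.00390) and in DESeq2 (adjusted p = 0.0179), and was lost when a variation of 10% between cultures was assumed (edgeR likelihood ratio test, adjusted p = 0.148).

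Foxa2 encodes the forkhead factor that specifies the floor plate and activates Shh there. Of its 19 intervals on chromosome 2 (gene at 148042877 to 148046969), 9 lay more than 100 kb away, most of them on the downstream side. The closed interval (147886084 to 147886616) was 156.5 kb downstream of the gene, with Pax1 511.3 kb off on the other side. It was weak, with 15, 14 and 15 fragments in the Nr6a1OE libraries, against 28, 30 and 28 in the mScarlet libraries, or 2.00 ± 0.121 CPM in Nr6a1OE and 3.90 ± 0.441 CPM in mScarlet (SD, n = 3 each). It fell by 0.95 on the log2 scale (SE 0.27, edgeR adjusted p = 0.0328).

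Each of the 6 fits that left out 1 library lost the call at Foxa2 (log2 fold change -1.03 to -0.87, edgeR adjusted p = 0.0591 to 0.138), and DESeq2 did not make it (adjusted p = 0.702). Both stronger neighbours of that interval were lower without passing, at -0.16 (SE 0.096) and -0.20 (SE 0.10). The interval over the gene and its inner starts was almost equal in the groups, with 36.1, 37.0 and 37.0 CPM in Nr6a1OE and 36.3, 36.1 and 38.2 CPM in mScarlet. Its log2 fold change was -0.01 (SE 0.074, edgeR adjusted p = 0.977). The strongest Foxa2 interval, 3.1 kb downstream, had 40.5 ± 3.34 CPM in Nr6a1OE and 39.1 ± 4.38 CPM in mScarlet (SD, n = 3 each). A weak interval 32.6 kb upstream held 3.41, 3.82 and 4.16 CPM in Nr6a1OE, against 5.89, 5.97 and 5.12 CPM in mScarlet, and its difference of -0.56 (SE 0.21, edgeR adjusted p = 0.154) did not pass although the groups did not overlap. Over the 19 intervals 11 were lower and 8 higher, with a median of -0.01.

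Nkx2-2 encodes the homeodomain factor of the most ventral neuronal progenitors, next to the floor plate. The gene (chromosome 2, 147176485 to 147195434) held 4 of its 6 intervals inside it. Its closed interval (147180324 to 147181456) was inside the gene, 4.4 kb from the end of the gene and 5.5 kb from the RefSeq start, with 25.4, 28.7 and 26.4 CPM in Nr6a1OE, against 31.8, 33.8 and 32.5 CPM in mScarlet. The groups did not overlap, and accessibility fell by 0.28 on the log2 scale (SE 0.082, edgeR adjusted p = 0.0363). Of the 6 fits that left out 1 library only that without Nr6a1OE 2 kept this call, and the highest adjusted p was 0.195, without Nr6a1OE 1. DESeq2 did not make it (adjusted p = 0.811).

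Neither neighbour inside the gene was called. The interval 1.24 kb nearer to the end of the gene had 23.7 ± 0.928 CPM in Nr6a1OE and 21.5 ± 1.27 CPM in mScarlet (SD, n = 3 each), with groups that did not overlap (0.14 on the log2 scale, edgeR adjusted p = 0.568). The interval over the start, with 82.4, 81.8 and 83.7 CPM in Nr6a1OE, against 84.6, 83.1 and 84.3 CPM in mScarlet, was the strongest of the 86. Its log2 fold change was -0.02 (SE 0.050). Fragments in the closed interval per fragment in the interval 1.24 kb away were 1.12, 1.17 and 1.11 in the Nr6a1OE libraries and 1.59, 1.53 and 1.46 in the mScarlet libraries, again as a description of an interval picked out by its difference.

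**Figure D2:**
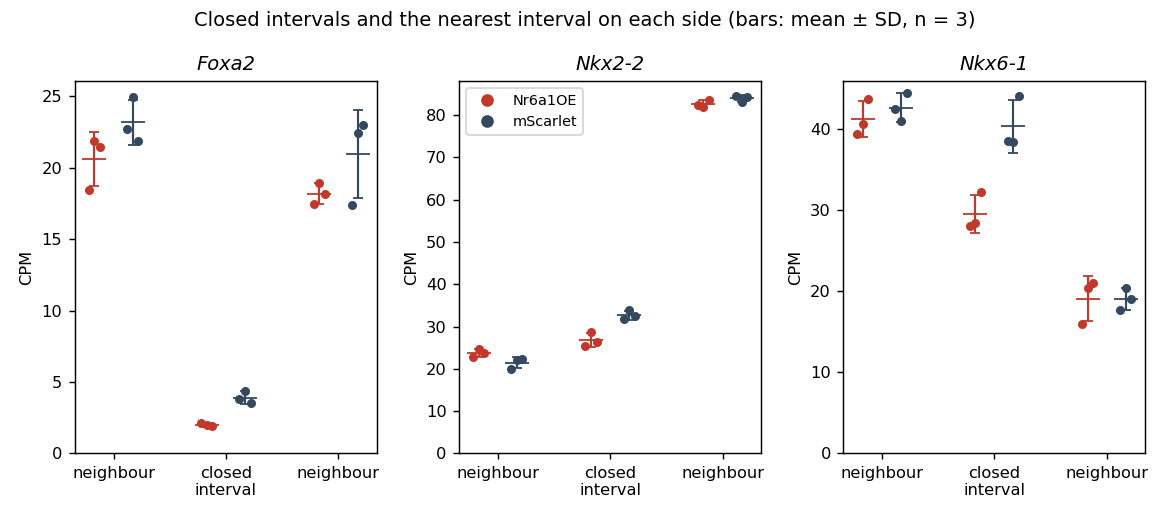
CPM (vertical axis, from 0) of each closed interval and of the nearest interval on either side, by library (points) with mean and SD (bars, n = 3), Nr6a1OE left of mScarlet. At Nkx6-1 the closed interval is at 29.5 CPM in Nr6a1OE and 40.3 CPM in mScarlet while both neighbours overlap between the groups.

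Among the remaining floor plate and most ventral genes no interval was called. Shh (chromosome 5, 28456840 to 28467101), the ligand itself, had 6 intervals. The interval over its gene end at 28467101 held 28.5, 26.4 and 29.3 CPM in Nr6a1OE, against 30.1, 30.9 and 28.1 CPM in mScarlet, with overlapping groups (log2 fold change -0.08, SE 0.083, edgeR adjusted p = 0.778). An interval inside the gene, 2.4 kb from the other end, was its strongest, at 39.0 ± 2.81 CPM in Nr6a1OE and 40.2 ± 4.48 CPM in mScarlet (SD, n = 3 each). The lowest unadjusted p at Shh belonged to a weak interval 96.3 kb away (28563103 to 28563740), with 21, 16 and 11 fragments in the Nr6a1OE libraries, against 26, 22 and 33 in the mScarlet libraries. Its groups did not overlap, and its log2 fold change of -0.74 (SE 0.27) did not pass (edgeR adjusted p = 0.154).

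Nkx2-9, a close relative of Nkx2-2 in the same domain (chromosome 12, 56611389 to 56613569), had 4 intervals, none of them called. The groups did not overlap, with Nr6a1OE lower at 3 (against 8.73% of all intervals) and higher at 1 (against 7.89%). At 1 of the 3, however, the nearest libraries were 2.98 CPM in Nr6a1OE and 3.00 CPM in mScarlet. The strong interval over its start held 58.5, 56.8 and 57.5 CPM in Nr6a1OE, against 62.2, 62.4 and 58.7 CPM in mScarlet, or -0.08 on the log2 scale (SE 0.058, edgeR adjusted p = 0.603). Opposite in direction was the interval 23.6 kb upstream, with 14.1, 14.3 and 15.0 CPM in Nr6a1OE, against 11.6, 12.5 and 10.5 CPM in mScarlet. Its log2 fold change of 0.33 (SE 0.12) did not pass either (edgeR adjusted p = 0.167).

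Nkx6-2, which shares much of its function with Nkx6-1 (chromosome 7, 139579376 to 139582797), had 11 intervals with a median of -0.02. Its start interval held 55.7, 53.1 and 53.5 CPM in Nr6a1OE, against 58.2, 59.9 and 55.0 CPM in mScarlet, and the groups overlapped (log2 fold change -0.09, SE 0.060, edgeR adjusted p = 0.570). Nearest to the threshold was an interval inside Inpp5a, 22.6 kb downstream of Nkx6-2 (139556367 to 139557159), with 3.98, 3.67 and 4.79 CPM in Nr6a1OE, against 5.89, 7.14 and 6.50 CPM in mScarlet. All 3 Nr6a1OE libraries were below all mScarlet libraries, and the log2 fold change of -0.64 (SE 0.19) missed the threshold (edgeR adjusted p = 0.0552). It passed with loess offsets (adjusted p = 0.0470). Since Nkx6-2 was only the nearest gene, this interval may serve Inpp5a or neither, which was not tested.

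Olig2, the basic helix-loop-helix factor of motor neuron and oligodendrocyte progenitors, and its neighbour Olig1, which acts in the oligodendrocyte lineage, lie on chromosome 16 (91225550 to 91228677 and 91269769 to 91271939). Their 8 intervals had log2 fold changes of -0.08 to 0.15, 0 called and 0 at an unadjusted p under 0.05 in edgeR, 0 called in DESeq2, and overlapping groups at each. The start interval of Olig2 held 63.8, 65.3 and 65.2 CPM in Nr6a1OE, against 64.5, 62.1 and 67.3 CPM in mScarlet, with a log2 fold change of 0.00064 (SE 0.056). Its strongest interval, 32.6 kb upstream, had 66.6 ± 1.61 CPM in Nr6a1OE and 70.0 ± 5.88 CPM in mScarlet (SD, n = 3 each; log2 fold change -0.08, edgeR adjusted p = 0.595). The interval over Olig1 had 48.7, 45.1 and 50.5 CPM in Nr6a1OE, against 54.2, 49.3 and 49.3 CPM in mScarlet (log2 fold change -0.08, SE 0.064). At 29.7 kb from Olig1 lay a further strong interval, at 43.0 ± 0.283 CPM in Nr6a1OE and 43.7 ± 1.74 CPM in mScarlet (SD, n = 3 each).

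Dbx1 and Dbx2 encode homeodomain factors of the intermediate progenitors just dorsal to these domains, where Dbx2 is the more broadly used of the pair. Both had more intervals higher than lower, 4 of 6 at Dbx1 and 4 of 5 at Dbx2, without a call. At Dbx1 (chromosome 7, 49631499 to 49636835) the start interval held 68.0, 74.7 and 74.6 CPM in Nr6a1OE, against 70.5, 76.6 and 75.3 CPM in mScarlet (log2 fold change -0.03, SE 0.053). The interval 3.7 kb upstream (49640064 to 49641002) held 10.4, 11.4 and 7.57 CPM in Nr6a1OE, against 7.26, 6.99 and 7.49 CPM in mScarlet. Its groups barely separated, since Nr6a1OE 3 was close to the mScarlet libraries, and its difference of 0.42 on the log2 scale (SE 0.15, edgeR adjusted p = 0.15) passed only without Nr6a1OE 3 (0.59, adjusted p = 0.0415).

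At Dbx2 (chromosome 15, 95623563 to 95654771) the strongest interval (95638975 to 95640729) lay inside the gene, 14.9 kb from its start, with 38.8, 42.1 and 40.0 CPM in Nr6a1OE, against 26.6, 39.1 and 36.6 CPM in mScarlet. The groups overlapped, with mScarlet 1 far below the other 2 mScarlet libraries. Its log2 fold change of 0.24 (SE 0.073) missed the threshold (edgeR adjusted p = 0.0530), passed without mScarlet 2 (0.34, adjusted p = 0.00842), without mScarlet 3 (0.31, adjusted p = 0.0281) and with loess offsets (0.25, adjusted p = 0.0488), and was 0.10 without mScarlet 1 (adjusted p = 0.722). The Dbx2 start interval held 22.0, 17.7 and 21.6 CPM in Nr6a1OE, against 20.7, 21.7 and 18.9 CPM in mScarlet, with a log2 fold change of 0.01 (SE 0.099).

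At the gene starts as a group, levels differed between the genes but not between Nr6a1OE and mScarlet beyond the tests. The 10 start intervals (for Shh and Olig1, whose start was not known, the interval over a gene end) had log2 fold changes of -0.09 to 0.01, with edgeR adjusted p of 0.570 to 0.996. In CPM per kb of interval, averaged over the 6 libraries, they ran from 28.9 at Nkx6-1 through 23.9 at Nkx6-2, 22.7 at Nkx2-2, 21.5 at Olig2, 21.5 at Olig1, 19.7 at Dbx1, 17.6 at Nkx2-9, 13.8 at Foxa2 and 10.8 at Shh to 10.4 at Dbx2. The libraries of Nkx6-1 (27.5 to 32.5) all lay above those of Nkx6-2, those of Nkx2-9 (16.9 to 18.5) above those of Foxa2 (13.5 to 14.4), and those of Foxa2 above those of Shh (9.85 to 11.5). All other neighbours in this order overlapped. Every one of the 10 was below the median of 33.0 CPM per kb over 10548 intervals that hold a start of a protein-coding gene, at percentiles of 11.8 to 41.3. These intervals were broad, which lowers a value per kb: the 8 that held a known start had a median length of 2876 bp and 62.0 CPM in all, against 1364 bp and 45.2 CPM for all start intervals tested.

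**Figure D3:**
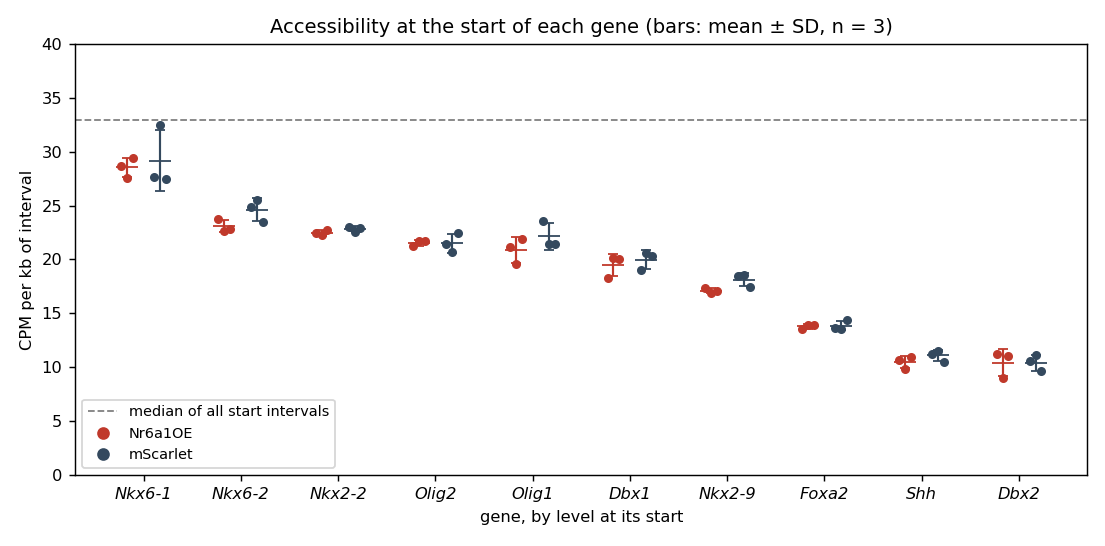
CPM per kb (vertical axis, from 0) at the start interval of each gene, by library (points) with mean and SD (bars, n = 3), Nr6a1OE left of mScarlet; the dashed line is the median of 10548 start intervals, 33.0. The order runs from 28.9 at Nkx6-1 to 10.4 at Dbx2, and none of the 10 differs between the groups past the threshold.

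Within 1 kb of a gene end 0 of 7 members closed (against 0.310% of all such intervals). From 1 to 10 kb 1 of 17 did (against 0.712%), the one inside Nkx2-2. From 10 to 100 kb 0 of 39 closed (against 1.58% of all such intervals) and 0 opened (against 0.5%). Before adjustment 6 were lower (15.4%) and 3 higher (7.69%) in edgeR (p under 0.05), against 6.87% and 5.73% of intervals at any distance. Beyond 100 kb 2 of 23 closed (against 2.96% of all such intervals), at Nkx6-1 and Foxa2, and 0 opened (against 0.479%). At an unadjusted p under 0.05 in edgeR, 6 were lower (26.1%) and 0 higher, against the same 6.87% and 5.73% at any distance. Neither here nor at 10 to 100 kb were these unadjusted shares matched for distance. An excess over other intervals equally far out cannot be read from them. Distal intervals leaned lower as a whole: 55.1% of all those 100 to 500 kb out were below 0, against 65.2% of the 23. The median log2 fold change of those 23 was -0.10, against -0.03 over all 6680 tested intervals 100 to 500 kb out, and it was -0.02 for the 39 members at 10 to 100 kb, against 0.01. All 23 belonged to Foxa2, Nkx6-1 and Shh. With only the intervals within 100 kb, the sum of Nkx6-1 was -0.09 on the log2 scale, against -0.12 over all its intervals, and that of Foxa2 was -0.03, against -0.07; neither passed within 100 kb (edgeR adjusted p = 0.264 for Nkx6-1 and 0.826 for Foxa2).

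**Figure D4:**
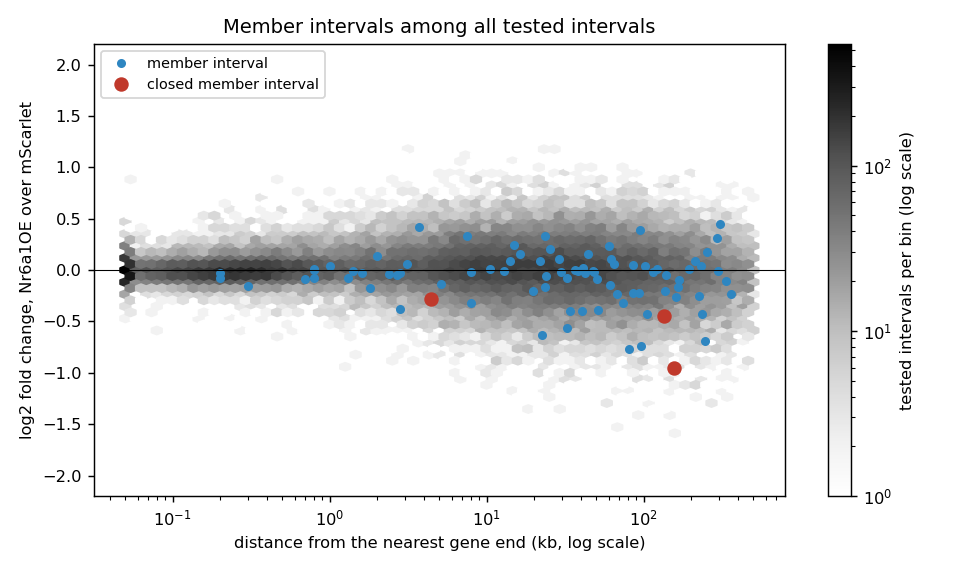
Log2 fold change (Nr6a1OE over mScarlet) against the distance from the nearest gene end (log axis; distances under 0.05 kb are drawn at 0.05) for all tested intervals within 500 kb (grey, darker for more intervals) and the members (blue; closed ones red). The closed members lie 4.4, 135.0 and 156.5 kb out, and the 7 members within 1 kb lie between -0.15 and 0.01.

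With fragments summed over all intervals of a gene, 1 of the 10 genes changed, Nkx6-1, and it fell. Its 21 intervals together held 328, 332 and 341 CPM in Nr6a1OE, against 356, 368 and 364 CPM in mScarlet, and the groups did not overlap. The log2 fold change was -0.12 (SE 0.027, edgeR adjusted p = 0.00479 over 16504 genes, of which 1.12% fell and 0.866% rose). Without the closed distal interval the sum no longer passed, at -0.08 (edgeR adjusted p = 0.134). Nor did it pass with only intervals within 100 kb (-0.09, adjusted p = 0.264), without Nr6a1OE 1 (-0.10, adjusted p = 0.0554) or in DESeq2 (-0.12, adjusted p = 0.0518).

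The 9 other sums lay between -0.07 and 0.11 and did not pass (edgeR adjusted p = 0.270 to 0.887). Foxa2 summed to 206 ± 10.4 CPM in Nr6a1OE and 217 ± 7.65 CPM in mScarlet (SD, n = 3 each), or -0.07 on the log2 scale (SE 0.032). Highest was Dbx2, at 98.5 ± 1.73 CPM in Nr6a1OE and 91.8 ± 4.92 CPM in mScarlet (SD, n = 3 each; 0.11, SE 0.046, edgeR adjusted p = 0.270). The 8 sums below 0 were those of every member but Dbx1 and Dbx2; without Nr6a1OE 2 or mScarlet 1 the sum of Dbx1 was below 0 too.

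**Figure D5:**
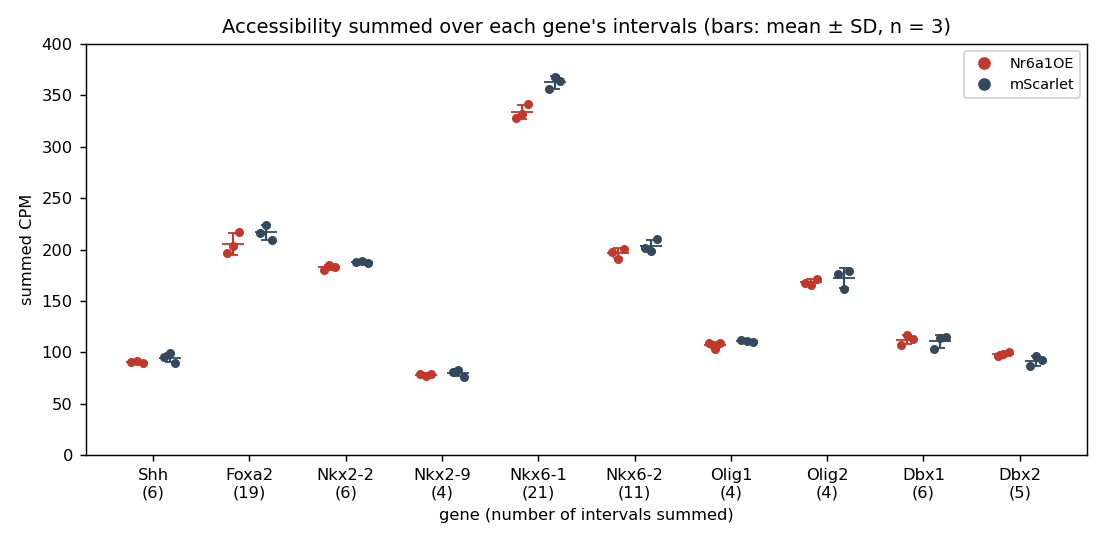
Summed CPM (vertical axis, from 0) over all intervals of each gene, by library (points) with mean and SD (bars, n = 3), Nr6a1OE left of mScarlet; the number of intervals is under each name. Nkx6-1 is at 334 CPM in Nr6a1OE and 363 CPM in mScarlet, and is the only sum past the threshold.

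Other genes of the pathway were listed by role and treated by the same rule. Of 116 intervals at 15 hedgehog pathway genes 2 opened (1.72%, against 0.469% of all) and 0 closed (against 1.26%) in edgeR, with a median of -0.0010. At an unadjusted p under 0.05, 15 of the 116 were higher, a larger share than the 5.73% of all. Lower were 8 of the 116, close to the 6.87% of all. DESeq2 called 1 opened and 0 closed. The opened intervals lay inside Gli3, the main repressor among the Gli factors, and 49.0 kb from Cdon, a coreceptor that binds Shh (chromosome 9, 35372054 to 35373063). The Cdon interval had 21.6 ± 1.46 CPM in Nr6a1OE and 14.3 ± 0.952 CPM in mScarlet (SD, n = 3 each) and rose by 0.60 on the log2 scale (SE 0.11, edgeR adjusted p = 9.54e-06). DESeq2 called it as well (adjusted p = 0.0211), and leaving out any 1 library kept the call (highest edgeR adjusted p = 0.00172). Of 95 intervals at 10 other floor plate genes 1 opened and 1 closed (1.05% each, median 0.04); DESeq2 called neither, and leaving out 1 library could lose both (highest edgeR adjusted p = 0.357 and 0.211). Among 144 intervals at 14 intermediate and dorsal progenitor genes 8 opened (5.56%) and 2 closed (1.39%), with a median of 0.05. Before adjustment (edgeR p under 0.05) 21 of the 144 were higher, a larger share than the 5.73% of all. Lower were 9, close to the 6.87% of all. DESeq2 called 0 of the 144, and 7 of the 10 edgeR calls were lost in at least 1 fit that left out a library (highest edgeR adjusted p = 0.290). Kept in each such fit were opened intervals 0.4 kb from an end of Pax3 and 165.8 kb from Irx3, and a closed one 35.5 kb from Gsx1. Their highest edgeR adjusted p were 0.0171, 0.0254 and 0.0458. Among 77 at 14 genes of the neurons that ventral domains produce 0 were called in edgeR or DESeq2 (median 0.02), while 4 were higher and 1 lower before adjustment (p under 0.05).

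The libraries were checked against markers of their labelled cell type. All 6 neural progenitor markers with a known start (Sox1, Sox2, Nes, Pax6, Vim and Fabp7) held it in an interval, and these intervals summed to 555 to 575 CPM in Nr6a1OE and 550 to 579 CPM in mScarlet. The starts of the pluripotency genes Pou5f1, Nanog and Zfp42, and of the mesoderm genes Tbx6 and Msgn1, lay in no interval. Start intervals were present at 2 of 5 pluripotency markers, 1 of 3 mesoderm, 2 of 2 endoderm, 4 of 4 neuron and 2 of 2 neural crest markers with a known start. The neuron sums were 201 to 217 CPM in Nr6a1OE and 213 to 225 CPM in mScarlet. Mesoderm markers summed to 15.4 to 20.9 CPM in Nr6a1OE and 12.5 to 16.3 CPM in mScarlet, endoderm markers to 74.0 to 82.3 CPM in Nr6a1OE and 73.3 to 79.3 CPM in mScarlet. Pluripotency markers summed to 108 to 112 CPM in Nr6a1OE and 103 to 110 CPM in mScarlet, neural crest markers to 59.9 to 64.1 CPM in Nr6a1OE and 59.3 to 68.3 CPM in mScarlet. Over all 22 intervals of the neuron markers 86.4% were lower in Nr6a1OE and 1 closed (4.55%), with a median of -0.14. Of all tested intervals 49.2% were lower and 1.26% closed, with a median of 0.0038. Among the endoderm markers 1 of 24 intervals closed (4.17%). It was the Foxa1 interval already counted as closed among the other floor plate genes. Among the neural crest markers 1 of 38 opened (2.63%, against 0.469% of all). No interval of the pluripotency or mesoderm markers was called. No start interval of any list was called. Away from the starts, 1 of 72 intervals of the neural progenitor markers opened (1.39%, against 0.469% of all) and 2 closed (2.78%, against 1.26%). The opened one, nearest to Pax6, was already counted among the intermediate and dorsal progenitor genes. The closed ones were 3.2 kb from an end of Nes, an intermediate filament gene of neural progenitors, and 78.1 kb from Sox2. The Nes interval had 39.2 ± 2.80 CPM in Nr6a1OE and 53.8 ± 4.44 CPM in mScarlet (SD, n = 3 each; -0.45 on the log2 scale, edgeR adjusted p = 9.35e-09), was called by DESeq2 (adjusted p = 0.00148) and kept its call without any 1 library. The Sox2 interval had 4.06 ± 0.718 CPM in Nr6a1OE and 6.73 ± 0.643 CPM in mScarlet (SD, n = 3 each; -0.72, edgeR adjusted p = 0.0187), and lost its call in at least 1 of those fits (highest adjusted p = 0.174). The calls at the neuron, endoderm and neural crest markers and at Pax6 were also lost in at least 1 fit that left out a library. Their highest edgeR adjusted p were 0.353, 0.211, 0.311 and 0.203, and DESeq2 made none of these calls. The part of these cell types in the members' changes was not tested.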

How the data were processed

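The authors deposited raw counts of fragments in 1 table, with 6 libraries and 52223 consensus intervals. Per the file headers, counts were made with featureCounts 2.0.1 on read pairs, a fragment counting for every interval that at least 0.2 of it overlapped, so neighbouring intervals can share fragments. The submitters' processing notes name mm10. For the aligner, the peak caller, duplicate and mitochondrial filtering and any shift for the Tn5 cut, the record is: not given in the sources used here.

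Groups came from the sample titles. filterByExpr removed 586 intervals and left 51637. Counts were scaled by TMM and tested with edgeR 4.0.16 (R 4.3.3; glmQLFit, glmQLFTest, no covariate, Benjamini-Hochberg adjustment over all intervals). The procedure was tried on counts simulated with the same spread at every interval. The check there was that median estimates came near the planted changes, and false calls were not part of it. Each SE is the log2 fold change divided by the root of its F value. CPM are counts scaled to TMM library sizes. Fragments summed per protein-coding gene by the members' rule were tested alike over 16504 genes. Gene positions and promoter sequences are RefSeq's (GRCm38.p6). Distances run from an interval's midpoint.

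Alternatives were DESeq2 1.42.0 (7 members had no adjusted p), RLE size factors, no count filter, loess offsets, an assumed variation of 10%, a 100 kb limit, a block on replicate number and leaving out each library. Summing Nr6a1OE 1 and 3, and Nkx6-1 without its closed interval, were chosen after seeing the data. The members, lists and motifs were chosen with earlier results of these data known. Named by rule were, for each gene, every called interval, the strongest, the one at the start and the one with the lowest p; neighbours of closed intervals and a few others (at Olig1 and Foxa2) were chosen after their values were seen. Precision is limited by 3 libraries a group.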

Additional observations from a re-analysis of the deposited data

How the results depend on the processing

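All of the counts below are from edgeR unless named otherwise. RLE size factors and no count filter kept 0 opened and 3 closed members, as did summing Nr6a1OE 1 and 3, and loess offsets gave 1 opened and 4 closed. DESeq2 gave 1 closed member (4 opened and 99 closed intervals in all, 5 higher and 15 lower gene sums, 0 of them members), the assumed variation of 10% gave 0 (19 opened and 205 closed in all), and the 100 kb limit gave 1 closed member and 0 lower member sums, also 0 without the closed interval of Nkx6-1. Leaving out 1 library gave 0 to 1 opened and 1 to 2 closed members, 98 to 190 opened and 395 to 544 closed intervals in all, 62 to 143 higher and 91 to 166 lower gene sums, and 0 to 1 lower member sums.

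The same 6 fits turned the direction of 8 named intervals and 1 sum, none of which was called: Shh at 2.4 kb (-0.094 to 0.052), Foxa2 at 3.1 kb (-0.032 to 0.12) and 1.4 kb (-0.024 to 0.022), Nkx6-1 at 120.8 kb (-0.066 to 0.12) and at its start (-0.066 to 0.052), Olig2 (-0.027 to 0.036), Dbx1 (-0.065 to 0.010) and Dbx2 (-0.047 to 0.099) at their starts, and the Dbx1 sum (-0.027 to 0.055). In all, 299 of 338 alternative values of the 26 named intervals kept direction and side of the threshold. Most of these intervals were not called in the main fit, so most of these values only stayed uncalled. The closed intervals of Foxa2, Nkx2-2 and Nkx6-1 kept their call in 5, 6 and 12 of 13 alternatives each.

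Replicate numbers are shared between the groups, but same-numbered libraries did not deviate together (r = 0.032, -0.025 and -0.030). These values are over the 18021 intervals that averaged 100 fragments or more, where Nr6a1OE 2 correlated best with mScarlet 3 (0.075). Whether same-numbered libraries shared a culture or batch is not given, and these values cannot decide it, since counting noise can hide it. With the replicate block 0 members opened and 3 closed, and 224 opened and 617 closed in all.

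Depth limits the weak intervals most: the closed interval of Foxa2 rests on 14 to 30 fragments a library.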
